A study of Mus musculus with 12 samples.

Results

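A set of 86 genes was at a higher level in wild type mouse embryonic stem cells after all-trans retinoic acid (ATRA), and was also at a higher level in cells lacking the retinoic acid receptors that had received no ATRA. The members were chosen from group means of log2(FPKM + 1), where FPKM counts sequenced fragments per length of transcript and per size of the library. A gene was kept if its mean with ATRA in wild type cells exceeded the wild type vehicle mean by at least 0.585, a ratio of 1.5, if the vehicle mean of the knockout exceeded it by at least 0.585 too, and if all 3 libraries of either group lay above all 3 wild type vehicle libraries. Of 23668 genes in the table, 86 met the rule, and all 86 were among the 12362 genes tested, which reached 1 FPKM in at least 3 libraries. Both differences are taken from the same 3 wild type vehicle libraries, so an error that lowers a gene there raises both, and the values that chose the genes are given below as a description with no test.

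The study profiled RNA from embryonic stem cells of strain SV129, grown on gelatin-coated plates with leukemia inhibitory factor (LIF) in the medium, in 4 groups of 3 libraries. Wild type cells (WT) and triple knockout cells (TKO; genotype RARalpha-/-, RARbeta-/-, RARgamma-/-) received either ethanol as vehicle or ATRA at 1 uM, for 24 h. No group differed from another in strain, plates or medium by the labels. How many clones the TKO line comprises is not stated by the labels. The deposited columns carry a letter, D, F or G, and values below are given in that order.

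The label was checked on the targeted genes and on stem cell markers. Rarg was read at 52.4, 35.8 and 55.8 FPKM in WT vehicle and at 15.4, 17.5 and 11.8 in TKO vehicle, and Rarb at 7.296, 7.29 and 5.13 in WT ATRA and 0.0674, 0.01501 and 0.0725 in TKO with ATRA. Rara stood at 14.1, 10.03 and 9.15 in WT vehicle and 7.55, 9.03 and 9.03 in TKO vehicle, values that cannot show whether the transcripts read are whole. The 8 stem cell markers summed to 7280 to 8470 FPKM in WT vehicle, 4650 to 5630 in WT ATRA, 6370 to 6800 in TKO vehicle and 6250 to 6570 in TKO with ATRA. Of 8 fibroblast and feeder markers 2 passed the filter on low values, Lum was at 0 in all libraries, and their sum was between 10.7 and 16.6 FPKM in every library. Each library had 11397 to 12193 genes at 1 FPKM or more. In WT with ATRA D the ratios of low values to WT vehicle D showed no sharp step of whole reads, unlike in the other libraries, and results without this library are given further on. In bulk RNA a change in the number of cells of one type and a change in RNA per cell cannot be told apart.

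Retinoic acid is made from vitamin A and enters the nucleus, where it binds receptors encoded by Rara, Rarb and Rarg. These receptors sit on DNA with retinoid X receptors, typically at pairs of short repeats called retinoic acid response elements. In the textbook account a receptor without ligand recruits corepressors and holds a target gene down and ligand exchanges them for coactivators. Stem cells treated with retinoic acid leave the pluripotent state, switch on Hox genes and the enzymes that clear retinoic acid, and can turn toward neural or endodermal fates.

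Promoters of 3 members are shown because the first carries the best known kind of response element of the set, the second carries the related shorter-spaced repeat, and the third belongs to a gene with one of the largest vehicle differences between genotypes. Each is the 250 bases before the start in RefSeq (GRCm38.p6), read 5′ to 3′ on the gene's strand, with capitals marking the matches described next.
Cyp26a1, chr19:37697558-37697807, plus strand: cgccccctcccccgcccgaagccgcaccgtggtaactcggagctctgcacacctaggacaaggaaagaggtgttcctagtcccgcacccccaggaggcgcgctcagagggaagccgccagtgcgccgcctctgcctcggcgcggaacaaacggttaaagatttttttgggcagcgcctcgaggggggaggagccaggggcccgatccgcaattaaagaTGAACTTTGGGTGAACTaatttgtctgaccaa
Tinagl1, chr4:130175123-130175372, minus strand: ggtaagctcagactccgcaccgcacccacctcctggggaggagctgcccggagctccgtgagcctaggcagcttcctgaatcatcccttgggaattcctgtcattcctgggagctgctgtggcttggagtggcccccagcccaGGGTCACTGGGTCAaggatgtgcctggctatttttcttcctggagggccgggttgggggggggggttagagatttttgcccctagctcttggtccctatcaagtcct
Cyr61, chr3:145649986-145650235, minus strand, listed by RefSeq as Ccn1: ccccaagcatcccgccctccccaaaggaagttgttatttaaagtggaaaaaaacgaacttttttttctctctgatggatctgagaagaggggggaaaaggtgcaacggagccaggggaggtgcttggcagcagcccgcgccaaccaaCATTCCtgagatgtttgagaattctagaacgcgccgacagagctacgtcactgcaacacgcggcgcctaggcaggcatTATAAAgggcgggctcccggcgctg
In Cyp26a1 the capitals mark a direct repeat of the half-site AGTTCA with 5 bases between, read on the opposite strand, whose first base lies 32 before the start. In Tinagl1 they mark GGGTCA repeated with 2 bases between, first base 107 before the start. In Cyr61 they mark the core of the TEAD factor site, GGAATG, on the opposite strand at 103 bases before the start, and a TATA box, TATAAA, at 25.

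RefSeq windows from 250 bases before to 50 bases after a start were given for 59 of the 86 members, as 71 windows. Direct repeats of any of the hexamers of the receptor half-site (AGGTCA or AGTTCA, and likewise GGGTCA or GGTTCA) were searched on both strands. With 5 bases between, 1 of the 71 member windows matched, that of Cyp26a1, against 5 of 12534 windows of tested genes (0.0399%) and 32 of 32851 windows in all (0.0974%). With 2 bases between, the only member match was that of Tinagl1, against 9 windows of tested genes (0.0718%) and 88 in all (0.268%). For the other members with a window these letters were not in this window, which says nothing of elements farther away. Neither repeat overlapped another motif searched.

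Other motifs were searched on both strands in the same windows. GGAATG was in 15 member windows of 12 genes (21.1%), against 12.2% of the windows of tested genes and 14.7% of all windows. These genes were Chst15, Cyr61, Epha2, Fam115c, Gpx8, Id3, Igf2, Lxn, Rtn1, Sox4, Tinagl1 and Tmem59l. The AP-1 site TGANTCA, bound by Jun and its partners, was in 7.04% of member windows (4.66% of tested and 7.81% of all), in Fam198b, Irgm1, Mlf1, Tinagl1 and Zyx. The GATA site AGATAA was in 2.82% (5.97% and 11.2%), the E-box CACGTG in 1.41% (10.3% and 7.15%), TATAAA in 8.45% (6.82% and 13.6%), and the GC box GGGCGG in 63.4% (64% and 35.7%). The CArG box, the site of serum response factor, was in 1 member window, that of Igf2 (1.41%, against 1.27% and 1.63%). These shares are descriptions of letters in a window, not of binding.

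The 86 genes were 9.03% of the 952 genes that met the conditions on ATRA in WT cells, and 10.7% of the 805 genes that met those on the knockout. Both numbers of genes were drawn from the 23668 genes in the table. By the mirrored rule 141 ATRA-raised genes (14.8%) were lower in untreated TKO cells, and 57 genes lowered by ATRA were higher there. The share of all genes lower in untreated TKO cells by that rule is not given, so nothing is read from 9.03% beside 14.8%. Without the condition that libraries be separate the rule kept 104 genes. The difference with ATRA in WT had a median of 0.83 over the members and reached 6.98 for Cyp26a1, and the difference of TKO from WT in vehicle had a median of 0.85 and reached 2.52 for Igf2. Both were at least 1 for 10 members, the former was the larger for 40 and the latter for 46. As a description of the rule's own contrasts, limma called 72 of the 86 for ATRA in WT, where 11.6% of all tested genes were called higher, and 78 for TKO against WT in vehicle, where 11.8% were. Not called for ATRA in WT were 14 members, among them Igf2, Plk2, Irgm1, Serpine2, Foxq1 and Gata4. Not called for TKO against WT in vehicle were 8, among them Cyp26a1, Gata4, Bmp1, Tinagl1 and Nt5e. Just inside the threshold lay Serpine2 (smaller difference 0.587), the pseudogene AA414768 (0.586) and Sh3bgrl2 (0.586), and just outside it Trim44 (0.5802), Pmp22 (0.579) and 1700048O20Rik (0.576).

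**Figure D1:**
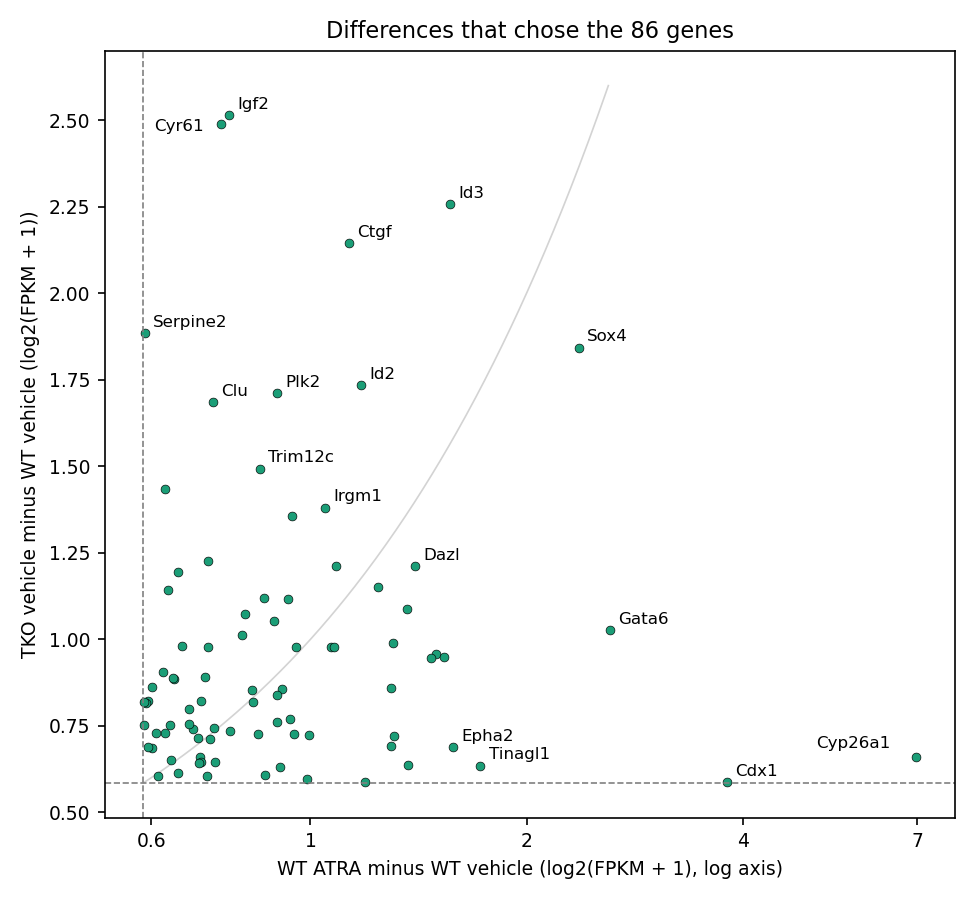
Each point is 1 of the 86 genes, with the difference of the WT ATRA mean from the WT vehicle mean on the horizontal axis (log2(FPKM + 1) units on a log axis) and the difference of the TKO vehicle mean from the WT vehicle mean on the vertical axis (same units, linear). Dashed lines mark the threshold of 0.585 and the grey curve marks equal differences; Cyp26a1, Cdx1 and Gata6 lie far to the right, while Igf2, Cyr61, Id3 and Ctgf lie high above the curve.

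Most of the genes were at low levels in untreated WT cells. The group mean in WT vehicle had a median of 2.06 FPKM over the 86 genes (0.127 to 43.4), and 67 genes were under 5 FPKM and 22 under 1, while 4 were over 20. The medians in the other groups were 4.5 FPKM in WT with ATRA (0.782 to 194), 4.74 in TKO vehicle (0.932 to 70) and 4.54 in TKO with ATRA (0.872 to 68.5). For genes this low a difference on the log2(FPKM + 1) scale understates the ratio of FPKM.

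**Figure D2:**
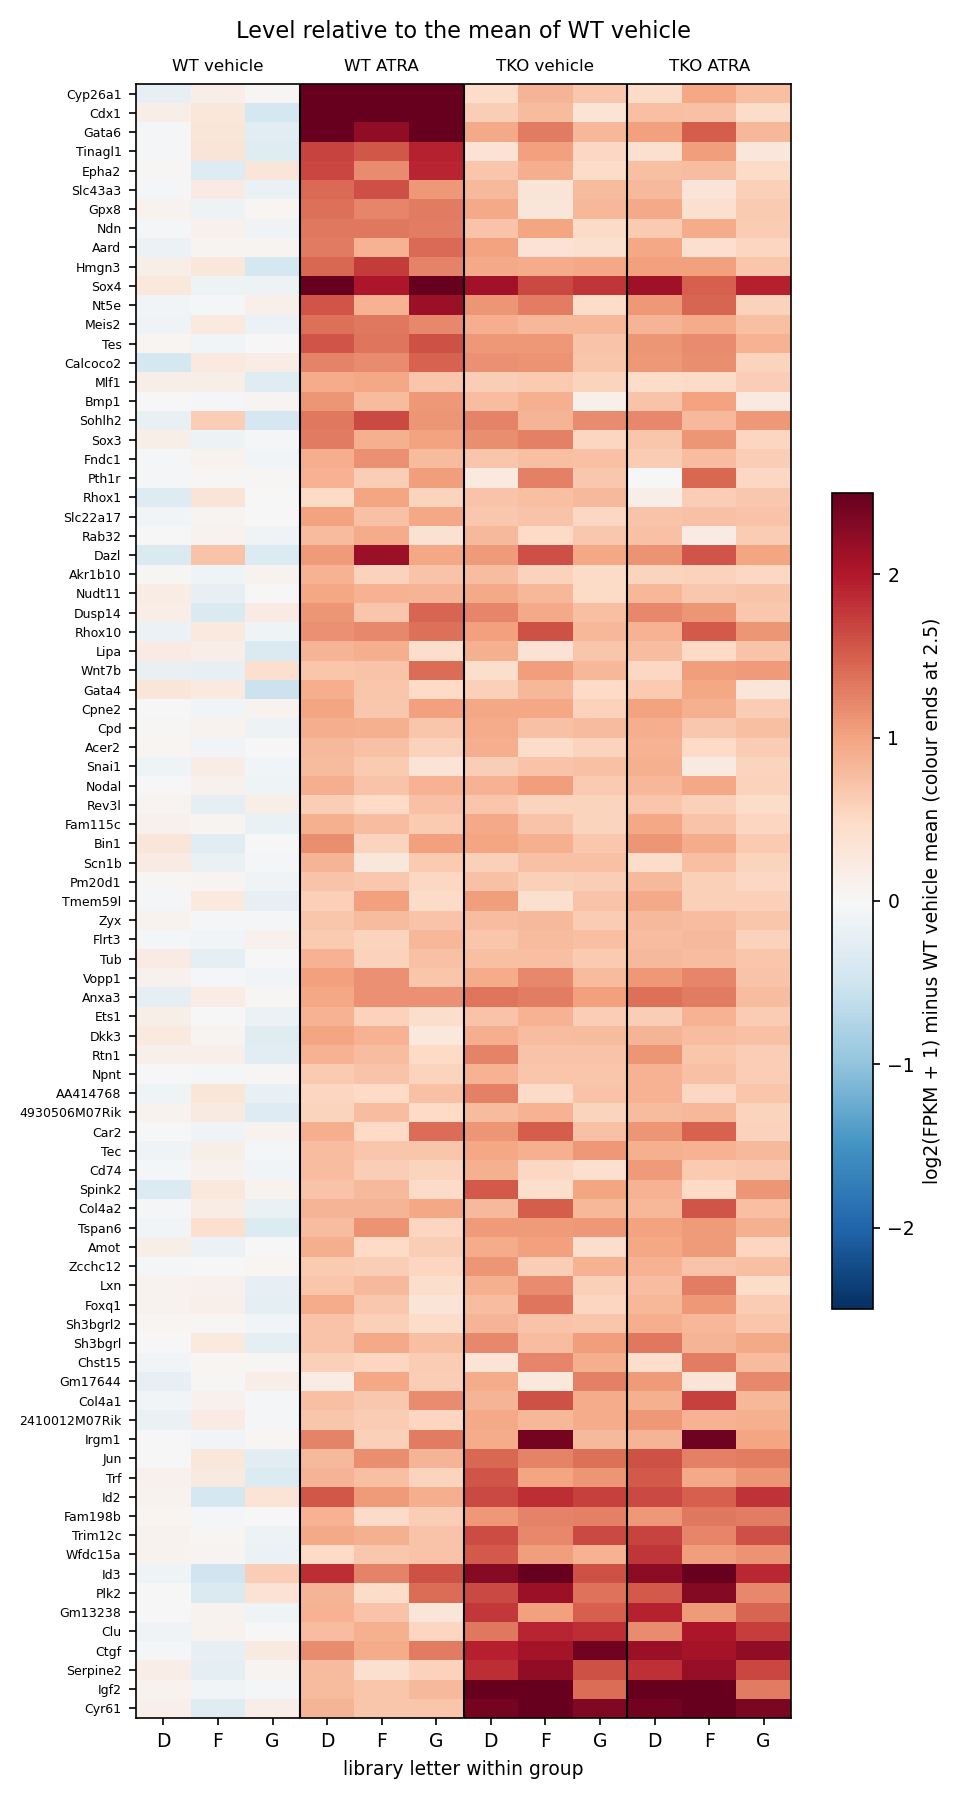
Colour shows log2(FPKM + 1) in each of the 12 libraries minus the mean of the 3 WT vehicle libraries, for 85 of the 86 genes in rows, ordered by the difference of TKO from WT under ATRA; colours end at 2.5. The TKO vehicle and TKO ATRA blocks look alike row by row and letter by letter, while the WT ATRA block is deepest in the top rows and paler than the TKO blocks in the bottom rows.

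Gene lists are described below with the members they hold, and their counts are limma calls over all tested genes of the list. They are to be read against the share of all tested genes: 11.6% rose and 5.14% fell with ATRA in WT, 11.8% were higher and 12.8% lower in TKO in vehicle, and 16.4% were higher and 25.7% lower in TKO under ATRA. The list counts come from the fit without a replicate block; for ATRA in WT it called 2063 genes, and adding the block (D, F and G in either genotype) raised that to 6887. These shares also depend on scaling. Of the genes called under ATRA between genotypes 38.9% were higher in TKO as reported, 48.5% when libraries were scaled by median of ratios and 49.5% when their quantiles were equalized, and of those called for ATRA in WT 69.2%, 59.5% and 55.2% rose. List counts were not recomputed under these scalings. The members were 0.696% of tested genes, and the lists were drawn up with earlier results known, so nothing is read from how many members a list holds. In no list did a gene pass for ATRA in TKO.

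Among secreted signals, Nodal was the most abundant member. Nodal is a TGF-beta family ligand that patterns the early embryo and is made by stem cells. It was read at 23.7, 25.7 and 21.98 FPKM in WT vehicle, 45.4, 39.7 and 43.9 in WT ATRA, 44.3, 49.8 and 37.7 in TKO vehicle and 43.1, 47.6 and 35.8 in TKO with ATRA. The libraries of the latter 3 groups overlapped, and all lay above those of WT vehicle. Wnt7b, a WNT ligand, was read at 1.23, 1.21 and 2.37 in WT vehicle, 3.15, 3.18 and 5.73 in WT ATRA, 2.45, 4.24 and 3.55 in TKO vehicle and 2.64, 4.26 and 4.33 in TKO with ATRA, where the lowest TKO vehicle library stood only slightly above the highest WT vehicle library. Dkk3, of the Dickkopf family of secreted WNT modulators, went from 2.61, 2.21 and 1.46 to 5.03, 4.56 and 2.68 with ATRA in WT, against 4.71, 4.23 and 4.27 and 4.52, 4.198 and 4.11 in TKO vehicle and TKO with ATRA. Bmp1, a metalloprotease that trims procollagens and the BMP antagonist chordin, went from 1.46, 1.41 and 1.598 to 4.31, 3.32 and 4.25, against 3.23, 3.63 and 1.71 and 3.09, 4.01 and 1.95. For Bmp1 the G library of either TKO group was close to WT vehicle and the D and F libraries were close to WT with ATRA. Of 29 tested WNT targets and inhibitors 2 were members, Wnt7b and Dkk3. In that list 13 rose and 4 fell with ATRA in WT, 5 were higher and 2 lower in TKO in vehicle, and 7 were higher and 13 lower under ATRA.

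Igf2, an insulin-like growth factor expressed from the paternal allele, had the largest vehicle difference between genotypes. It was read at 0.779, 0.608 and 0.644 FPKM in WT vehicle, 1.899, 1.72 and 1.95 in WT ATRA, 12.3, 14.03 and 3.41 in TKO vehicle and 11.9, 14.3 and 3.12 in TKO with ATRA. The G library of both TKO groups was well below D and F and still above every WT library. Another imprinted member was Ndn, which encodes the growth suppressor necdin and is also expressed from the paternal allele, with 4.19, 4.71 and 4.002 FPKM in WT vehicle, 12.2, 12.2 and 11.9 in WT ATRA, 7.69, 9.43 and 6.34 in TKO vehicle and 7.34, 9.08 and 7.18 in TKO with ATRA. For Ndn every TKO library lay between the WT groups. H19, the maternally expressed neighbour of Igf2 and not a member, was at 0.125, 0.225 and 0.0231, 0.174, 0.238 and 0.113, 0.9704, 3.92 and 1.56 and 1.07, 3.81 and 1.44 FPKM in the same order of groups. H19 was lowest in the D library of TKO and Igf2 in G. Of 24 tested imprinted genes 2 rose and 2 fell with ATRA in WT, 6 were higher and 1 lower in TKO in vehicle, and 7 were higher and 5 lower under ATRA.

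Ctgf and Cyr61 encode matricellular proteins that are among the best known targets of the YAP coactivator and its TEAD partners. Ctgf was read at 2.54, 2.12 and 3.202 FPKM in WT vehicle, 7.11, 5.8001 and 7.85 in WT ATRA, 12.9, 14.2 and 18.1 in TKO vehicle and 15.01, 14.1 and 15.6 in TKO with ATRA. Cyr61, whose promoter is printed above, was read at 1.59, 0.931 and 1.66, 3.29, 2.85 and 2.84, 11.4, 15.01 and 10.8 and 11.6, 14.1 and 11.1 in the same order. For both genes every WT ATRA library lay above every WT vehicle library and below every TKO library. Another gene of the same list, Nt5e, the cell surface enzyme that makes adenosine from AMP, was read at 0.292, 0.298 and 0.471 in WT vehicle, 3.01, 1.47 and 5.04 in WT ATRA, 1.89, 2.29 and 0.862 in TKO vehicle and 1.85, 2.71 and 1.01 in TKO with ATRA, with overlap between the latter 3 groups. Amot, whose protein angiomotin binds YAP, was at 1.39, 0.953 and 1.196 in WT vehicle, 3.08, 2.07 and 2.35 in WT ATRA and 3.14, 3.44 and 1.93 in TKO vehicle. Of 24 tested YAP and TEAD target genes 3 were members. In that list 7 rose and 2 fell with ATRA in WT, 8 were higher and 6 lower in TKO than in WT in vehicle, and 9 were higher and 7 lower under ATRA.

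Id2 and Id3 encode inhibitors that bind basic helix-loop-helix factors and keep them off DNA, and both are classical targets of BMP signalling. Id3 was read at 2.77, 1.8999 and 5.24 FPKM in WT vehicle, 13.8, 8.6997 and 11.3 in WT ATRA, 18.7, 29.7 and 11.3 in TKO vehicle and 18.3, 28.2 and 14.02 in TKO with ATRA. Id2 was read at 3.93, 2.45 and 4.93, 12.6, 8.75 and 7.76, 13.7, 15.7 and 14.2 and 13.7, 12.1 and 15.3 in the same order. All 3 TKO vehicle libraries of Id2 lay above all WT ATRA libraries, and those of Id3 overlapped them. Id1, of the same family and not a member, was at 62.3, 58.2 and 96.2 in WT vehicle and 32.98, 76.1 and 18.6 in TKO vehicle, lower in 2 of 3 TKO libraries than in any WT vehicle library. Of the 38 tested genes of the TGF-beta, Nodal and BMP list 15 rose and 3 fell with ATRA in WT, 6 were higher and 7 lower in TKO in vehicle, and 5 were higher and 16 lower in TKO under ATRA. Its 4 members were Bmp1, Id2, Id3 and Nodal. The Nodal target Lefty1 was not one of them, at 71.99, 78.1 and 76.2 in WT vehicle, 432, 408 and 241 in WT ATRA and 16.97, 30.6 and 52.2 in TKO vehicle.

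The members with the largest shared difference included transcription factors of the SOX family. Sox4, which acts in progenitor cells of many tissues, was read at 2.03, 1.31 and 1.29 FPKM in WT vehicle, 13.5, 9.27 and 13.7 in WT ATRA, 9.797, 6.88 and 7.68 in TKO vehicle and 9.93, 6.11 and 8.67 in TKO with ATRA. It ranked first by the smaller of its 2 differences (2.37 with ATRA in WT and 1.84 in TKO vehicle). Sox3, an X-linked relative of Sox2 that marks neural progenitors, was read at 0.515, 0.252 and 0.332, 2.37, 1.505 and 1.75, 2.03, 2.24 and 0.967 and 1.22, 1.91 and 0.966 in the same order. For both genes the TKO vehicle libraries overlapped those of WT with ATRA.

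Endoderm regulators formed another group of DNA-binding members. Gata6, which directs primitive endoderm, was read at 1.02, 1.52 and 0.701 FPKM in WT vehicle, 11.3, 8.56 and 15.8 in WT ATRA, 2.99, 4.04 and 2.65 in TKO vehicle and 3.204, 4.902 and 2.65 in TKO with ATRA. Its partner Gata4 was read at 3.405, 3.25 and 1.46, 5.74, 4.804 and 4.04, 4.3995, 5.36 and 4.08 and 4.61, 5.98 and 3.41. Gata6 in TKO cells lay between the WT groups with no overlap, and Gata4 overlapped WT with ATRA. Foxq1, a forkhead factor, went from 0.975, 1.04 and 0.597 to 2.55, 1.97 and 1.33 with ATRA in WT, against 2.19, 3.695 and 1.71 and 2.29, 2.92 and 1.88 in TKO vehicle and TKO with ATRA. For these 3 genes F was the highest library in both TKO groups.

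Col4a1 and Col4a2 encode the chains of the basement membrane collagen that endoderm lays down, and they are transcribed away from each other from one shared region on chromosome 8. Col4a1 was read at 19.7, 22.4 and 20.2 FPKM in WT vehicle, 35.5, 33.6 and 48.1 in WT ATRA, 38.1, 64.6 and 40.2 in TKO vehicle and 39.2, 70.1 and 37.6 in TKO with ATRA. Col4a2 was read at 9.65, 11.4 and 8.67, 18.5, 18.7 and 20.3, 18.1, 29.8 and 18.4 and 18.3, 31.5 and 17.2. In both genes the F library of either TKO group exceeded every WT library, and the D and G libraries were close to WT with ATRA.

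Of 26 tested extraembryonic endoderm genes 6 were members. In that list 10 rose and 1 fell with ATRA in WT, 14 were higher and 1 lower in TKO in vehicle (median difference 0.68), and 10 were higher and 6 lower in TKO under ATRA. The 7 endoderm markers, 3 of them members, summed to 59.8 to 69 FPKM in WT vehicle, 86.9 to 110 in WT ATRA, 88.3 to 129 in TKO vehicle and 90.6 to 138 in TKO with ATRA. The markers did not all follow one pattern: Sox7 was at 2.53, 2.54 and 1.88 in WT vehicle, 6.399, 7.42 and 9.24 in WT ATRA and 1.98, 2.29 and 1.64 in TKO vehicle, whereas Dab2 was at 2.05, 3.21 and 1.74, 2.15, 3.37 and 2.08 and 6.44, 9.13 and 6.27. Sox7 differed with ATRA and Dab2 with genotype, and neither met the whole rule. The part of endoderm-like cells in these differences was not tested.

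**Figure D3:**
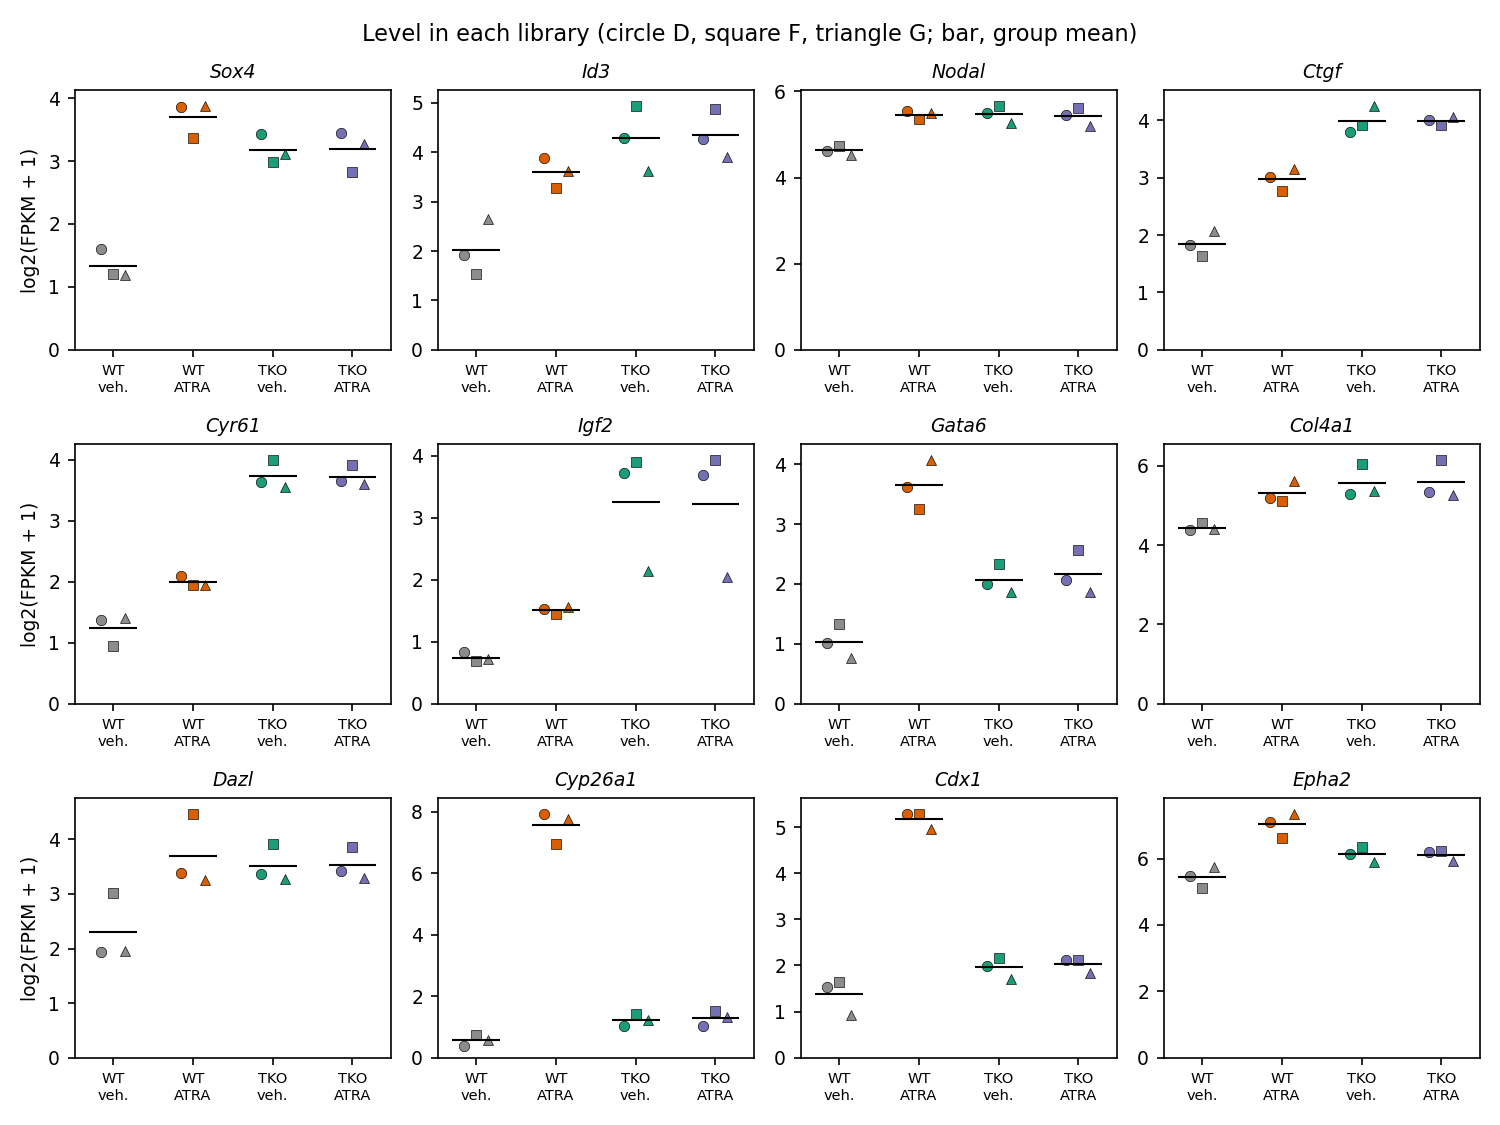
Points are log2(FPKM + 1) in single libraries (circle D, square F, triangle G) of 12 of the genes, in the 4 groups along the horizontal axis, with a bar at the group mean; each vertical axis starts at 0. For Ctgf, Cyr61 and Igf2 both TKO groups stand above WT with ATRA, and for Sox4, Nodal, Col4a1 and Dazl they overlap it. For Id3 TKO vehicle overlaps WT with ATRA and TKO with ATRA stands above it. For Gata6, Cyp26a1, Cdx1 and Epha2 both TKO groups stand below WT with ATRA. In every panel the TKO pair of groups sits at about one height.

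Of the 29 tested genes of retinoic acid response and metabolism 3 were members, Cyp26a1, Cdx1 and Meis2. Cyp26a1 encodes the enzyme that degrades retinoic acid and is the standard reporter of receptor activity. It was read at 0.295, 0.676 and 0.507 FPKM in WT vehicle, 243, 122 and 218 in WT ATRA, 1.04, 1.69 and 1.36 in TKO vehicle and 1.06, 1.89 and 1.51 in TKO with ATRA. Cdx1, a homeobox activator of Hox genes, was read at 1.902, 2.14 and 0.906, 37.7, 38.1 and 30.1, 2.99, 3.502 and 2.28 and 3.36, 3.33 and 2.57. In the untreated knockout both genes were thus slightly above untreated WT and far below WT with ATRA: the vehicle difference was 9.47% of the ATRA difference for Cyp26a1 and 15.5% for Cdx1, on the log2(FPKM + 1) scale. Meis2, a homeobox cofactor of Hox proteins, was read at 0.4697, 0.841 and 0.39996, 3.06, 2.86 and 2.58, 1.93, 1.78 and 1.78 and 1.81, 1.96 and 1.62, a share of 66.2%. In that list 23 rose and 0 fell with ATRA in WT, 4 were higher and 6 lower in TKO in vehicle, and 1 was higher and 24 lower in TKO under ATRA. None of the 19 tested Hox genes was a member: 19 rose with ATRA in WT, and in vehicle 0 were higher and 2 lower in TKO. None of 38 tested pluripotency genes was a member either, of which 24 fell and 4 rose with ATRA in WT.

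Dazl, Rhox10 and Sohlh2 were among the 16 members with the largest smaller difference, and Rhox1 was not. Dazl, an RNA-binding protein needed for germ cells, was read at 2.82, 7.07 and 2.88 FPKM in WT vehicle, 9.37, 21.1 and 8.57 in WT ATRA, 9.29, 14.02 and 8.63 in TKO vehicle and 9.67, 13.6 and 8.74 in TKO with ATRA. In the WT groups and in both TKO groups its F library was the highest. Sohlh2, a helix-loop-helix factor of early germ cells, was read at 7.43, 13.7 and 6.21, 23.1, 29.4 and 19.6, 21.6, 16.3 and 20.9 and 21.2, 15.9 and 19.4. Rhox10, a reproductive homeobox gene of the X chromosome, was read at 0.446, 0.902 and 0.481, 2.54, 2.65 and 3.17, 2.26, 3.79 and 1.85 and 1.93, 3.61 and 2.43. The libraries of TKO vehicle overlapped WT with ATRA for all 3 genes. Rhox1, of the same cluster, was under 2 FPKM throughout and was at 1.24, 1.31 and 1.42 in TKO vehicle and 0.545, 1.11 and 1.2001 in TKO with ATRA, with its lowest TKO ATRA library below its highest WT vehicle library (0.1002, 0.718 and 0.376). Rhox genes resemble each other in sequence, so their values are uncertain where reads could be split between copies.

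Genes of the cell surface and the cytoskeleton made up another part. Epha2, a receptor tyrosine kinase for ephrin-A ligands, was the most abundant member in WT vehicle, at 43.6, 33.9 and 52.6 FPKM, with 137, 97.7 and 162 in WT ATRA, 69.9, 81.3 and 58.9 in TKO vehicle and 72.1, 73.2 and 60.1 in TKO with ATRA. Every TKO library of Epha2 lay below every WT ATRA library. Zyx, a focal adhesion protein, was read at 9.19, 8.47 and 8.29, 14.7, 15.6 and 14.9, 15.5, 15.997 and 13.95 and 15.9, 15.4 and 14.6, one of the tightest members. Tes, another focal adhesion protein, was read at 5.77, 5.29 and 5.65, 18.6, 15.5 and 18.7, 12.9, 12.9 and 9.76 and 13.2, 13.8 and 10.98. Anxa3, a calcium-dependent membrane-binding annexin, was read at 3.21, 4.58 and 4.03, 8.62, 9.8002 and 9.87, 11.3, 10.9 and 8.97 and 11.7, 11.1 and 7.33. The TKO libraries of Tes lay between the WT groups, and those of Zyx and Anxa3 overlapped WT with ATRA. Of 29 tested genes of the actin cytoskeleton 14 were higher and 2 lower in TKO in vehicle while 5 rose and 2 fell with ATRA in WT, and Zyx was the 1 member. Of 34 tested adhesion and axon guidance genes, with Epha2 as the 1 member, 8 rose and 6 fell with ATRA in WT, and 7 were higher and 8 lower in TKO in vehicle. Of 26 tested keratin, annexin and S100 genes Anxa3 was the 1 member, with 8 higher and 3 lower in TKO in vehicle and 4 rising and 4 falling with ATRA in WT.

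Other extracellular members differed in the order of their groups. Serpine2, a serine protease inhibitor, was read at 4.04, 2.79 and 3.68 FPKM in WT vehicle, 6.75, 4.86 and 5.67 in WT ATRA, 15.1, 19.7 and 12.5 in TKO vehicle and 14.96, 19.2 and 13.2 in TKO with ATRA. Clu, an extracellular chaperone, was read at 5.51, 6.31 and 5.85, 10.8, 11.8 and 8.92, 16.1, 24.7 and 23.7 and 14.6, 26.9 and 21.8. In both genes every TKO library lay above every WT ATRA library. Tinagl1, a matricellular protein of basement membranes whose promoter is printed above, showed the reverse order, with 3.53, 4.82 and 2.75 in WT vehicle, 13.9, 12.6 and 16.5 in WT ATRA, 4.93, 8.397 and 5.65 in TKO vehicle and 5.102, 8.54 and 4.59 in TKO with ATRA. Its lowest TKO ATRA library was below its highest WT vehicle library. Of 34 tested matrix and integrin genes Serpine2 was the 1 member in the list, with 10 rising and 3 falling with ATRA in WT, and 12 higher and 5 lower in TKO in vehicle.

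Kinase signalling and stress genes included Jun, a subunit of the AP-1 factor, at 1.47, 2.04 and 1.05 FPKM in WT vehicle, 3.36, 4.57 and 3.49 in WT ATRA, 5.75, 4.896 and 5.48 in TKO vehicle and 6.48, 4.92 and 5.02 in TKO with ATRA. All TKO libraries of Jun lay above all WT ATRA libraries. Dusp14, a phosphatase of MAP kinases, was read at 2.86, 1.68 and 2.99, 6.39, 4.57 and 8.45, 7.102, 5.66 and 4.86 and 6.99999, 6.38 and 4.54. Plk2, a polo-like kinase that p53 can induce, was read at 3.12, 2.18 and 4.25, 6.37, 4.63 and 9.75, 11.8, 16.96 and 9.54 and 10.9, 19.2 and 8.41. The libraries of both genes overlapped between TKO vehicle and WT with ATRA. Of 39 tested genes of the FGF and ERK list 9 rose and 7 fell with ATRA in WT, and 13 were higher and 2 lower in TKO in vehicle. Of 29 tested p53 and apoptosis genes, 6 rose and 0 fell with ATRA in WT, and 11 were higher and 2 lower in TKO in vehicle. Snai1, a zinc finger repressor of E-cadherin, was read at 2.35, 3.12 and 2.47, 5.25, 4.75 and 3.58, 4.59, 4.93 and 5.05 and 5.77, 3.25 and 4.31, and was the 1 member among 9 tested trophoblast and mesoderm factors, of which 3 rose and 1 fell with ATRA in WT and 2 were higher and 2 lower in TKO in vehicle.

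The remaining highly ranked genes had unrelated roles. Irgm1, an interferon-inducible GTPase of innate defence, was read at 0.129, 0.0811 and 0.1699 FPKM in WT vehicle, 1.66, 0.707 and 1.78 in WT ATRA, 1.16, 4.901 and 0.982 in TKO vehicle and 1.04, 5.06 and 1.24 in TKO with ATRA. The F library of TKO was several times the others in both treatments. Calcoco2, a receptor of selective autophagy, was read at 12.2, 20.2 and 19.1, 41.2, 39.5 and 48.2, 38.1, 37.8 and 27.9 and 36.6, 38.7 and 25.2, and Vopp1 at 0.7299, 0.574 and 0.522, 2.29, 2.55 and 1.58, 2.07, 2.7003 and 1.79 and 2.41, 2.73 and 1.62. TKO vehicle was below WT with ATRA in every library for Calcoco2, and overlapped it for Vopp1. In all, 28 of the 86 genes were in at least 1 of the 18 gene lists examined and 58 were in none. Lipid and cholesterol genes (30 tested), fibroblast and feeder markers (6 tested) and endothelial and blood markers (7 tested) held no member; with ATRA in WT 4, 4 and 1 of them rose and 1, 1 and 2 fell, and in vehicle 1, 0 and 5 were higher and 3, 1 and 0 lower in TKO. Members in no list included Trf (the iron carrier transferrin), Car2 (a carbonic anhydrase), Lipa (lysosomal acid lipase), Cd74 (the invariant chain of MHC class II), Rev3l (the catalytic subunit of a translesion DNA polymerase) and Hmgn3 (a nucleosome-binding protein). GENCODE classes Gm13238 and AA414768 as processed pseudogenes and Gm17644 as a long intergenic RNA. For 29 members the annotation has a gene on the opposite strand that overlaps them, and since the labels and notes name no strand setting for the counting, their values are uncertain to that extent.

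The level in untreated TKO cells was next set beside that in WT cells with ATRA. The 3 TKO vehicle libraries lay above the 3 WT ATRA libraries for 14 members, where 19.7% of all tested genes did so. These were Id2, Ctgf, Jun, Trim12c, Igf2, Cyr61, Clu, Trf, Tec, Fam198b, Wfdc15a, Gm13238, 2410012M07Rik and Serpine2. They lay below for 15 members (30.5% of all tested genes), namely Gata6, Calcoco2, Tes, Hmgn3, Meis2, Fndc1, Ndn, Gpx8, Epha2, Cyp26a1, Slc43a3, Tinagl1, Slc22a17, Mlf1 and Cdx1. For the other 57 the libraries overlapped. Both sets of libraries entered the rule, so these counts describe the members and carry no test.

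The group that the rule did not use is TKO with ATRA. Its 3 libraries lay above the 3 WT vehicle libraries for 83 of the 86 genes, where 19.3% of all tested genes did so; the others were Pth1r, Rhox1 and Tinagl1. This count is not independent of the rule and nothing is read from it. The rule had already placed the WT vehicle libraries of every member below 6 others, and TKO libraries of one letter resemble each other across treatments. After group means were removed, the TKO vehicle and TKO ATRA libraries of one letter had correlations across genes of 0.604 (D), 0.864 (F) and 0.728 (G). Such libraries are not independent replicates.

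ATRA changed 0 of the 86 genes in TKO cells by limma with Benjamini-Hochberg adjustment over all tested genes, where it changed 0% of the 12362 genes tested. No member had an unadjusted p under 0.05 (12 tested genes did, 0.0971%), and the smallest was 0.189, for Rhox1 at −0.27. The log2 differences of the members ran from −0.27 to 0.19 with a median of −0.00473, against −0.00287 over all tested genes, and 39 were positive and 47 negative. The TKO vehicle libraries in this contrast had entered the rule. The intervals given here come from the limma fit without a replicate block, which leaves out the pairing by letter. With the block 354 tested genes had an unadjusted p under 0.05, and 323 with the block as a random effect. The widths therefore belong to the unpaired fit and do not show which sizes a paired fit would leave possible. The 95% interval lay within 0.585 of 0 on either side for 70 of the 86 genes, where it did for 87.3% of tested genes, and its median half-width was 0.413 for the members and 0.302 for all.

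For Sox4 the interval of the ATRA difference in TKO cells was −0.44 to 0.45, for Ctgf −0.33 to 0.33, for Nodal −0.33 to 0.22 and for Zyx −0.17 to 0.19. For Igf2 it was −1.13 to 1.06, and for Cyp26a1 −0.45 to 0.59. In this unpaired fit the interval reached past 0.585 for 16 genes. They were Id3, Dazl, Irgm1, Gata6, Sox3, Nt5e, Car2, Plk2, Igf2, Wnt7b, Pth1r, Rhox1, Spink2, Cyp26a1, Wfdc15a and Gm17644. The difference between the ATRA effects of the genotypes was not tested for the members, since the WT effect had chosen them.

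Compared letter by letter, TKO with ATRA was above TKO vehicle in all 3 pairs for 9 members, where 14% of tested genes were, and below it in all 3 for 10, where 15.3% were. The former were Tes, Wnt7b, Tub, Amot, Cyp26a1, Fam198b, Wfdc15a, Slc22a17 and Cd74, and the latter Sohlh2, Sox3, Nodal, Cpd, Trf, Tec, Rtn1, Dkk3, Rhox1 and Rab32. All 3 libraries were apart without pairing for Slc22a17, which was higher with ATRA (2.904, 3.01 and 2.53 FPKM in vehicle and 3.04, 3.08 and 3.05 with ATRA; 0.736% of tested genes were apart in that direction), and for Rhox1, which was lower (0.599%). Neither passed the test.

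**Figure D4:**
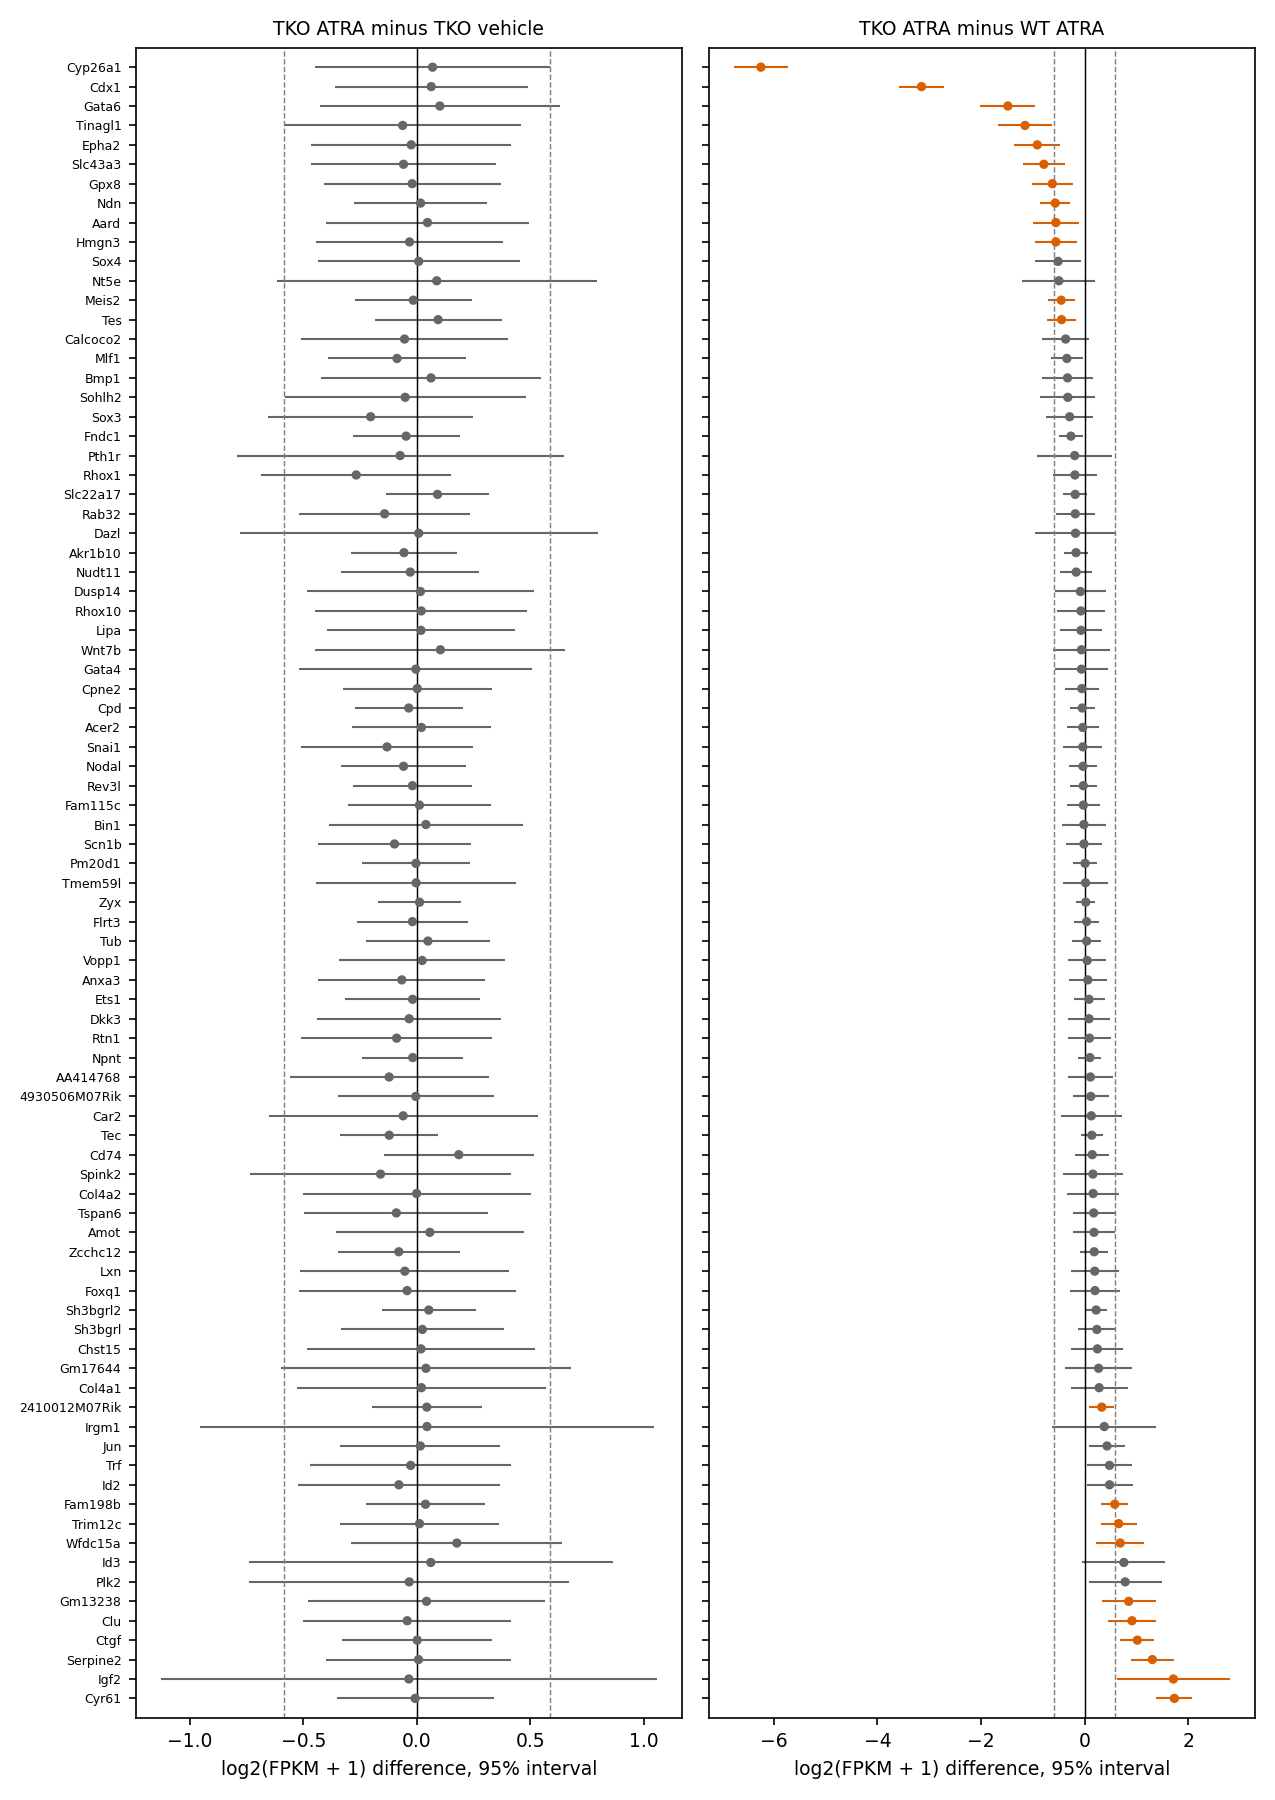
For 85 of the 86 genes in rows, points are differences on the log2(FPKM + 1) scale and lines their 95% intervals in limma, for TKO ATRA minus TKO vehicle on the left and TKO ATRA minus WT ATRA on the right; dashed lines mark 0.585 on either side of 0 and orange marks an adjusted p under 0.05. Both panels come from the fit without a replicate block, and each contrast holds libraries that had entered the rule. On the left all points lie between −0.27 and 0.19 and none is orange, while on the right 12 orange points lie below 0 and 10 above.

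Under ATRA the genotypes differed for 22 of the 86 genes in limma, where 42.1% of all tested genes were called. Higher in TKO were 10 members (16.4% of tested genes) and lower 12 (25.7%), and 64 did not pass. The split depended on scaling: 45.5% of the calls were higher as reported, 60.9% with median-of-ratios scaling (14 higher and 9 lower) and 65.4% with quantile normalization (17 and 9). The share over all tested genes moved in the same direction, from 38.9% to 48.5% and 49.5%. Over all 86 the median difference was 0.0111, with 44 positive and 42 negative (56 and 61 positive under those scalings), against −0.0726 over all tested genes. The WT ATRA libraries in this contrast had been required to be high by the rule, which favours values lower in TKO. The rule had required the TKO vehicle libraries to be high too. Since TKO libraries of one letter resemble each other across treatments, that favours values higher in TKO. The counts in both directions are thus tied to the rule, and so are the differences of single members given next. Their p-values take no account of how the members were chosen.

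The largest positive difference under ATRA was that of Cyr61, at 1.73 ± 0.16 (SE; adjusted p = 1.1e-05). Igf2 followed with 1.71 ± 0.50 (SE; adjusted p = 0.0172), a call that was lost without the D or the F library of TKO with ATRA (differences of 1.48 and 1.35). Serpine2 differed by 1.30 ± 0.19 (SE; adjusted p = 2.5e-04), Ctgf by 1.02 ± 0.15 (SE; adjusted p = 3.2e-04) and Clu by 0.91 ± 0.21 (SE; adjusted p = 0.00483). All 3 TKO libraries were above all 3 WT libraries under ATRA for these 5 genes. The other genes called higher were Trim12c, Fam198b, Wfdc15a, Gm13238 and 2410012M07Rik, by 0.65, 0.58, 0.69, 0.85 and 0.33. Trim12c, a gene of the TRIM family, and the pseudogene Gm13238 have near copies and are uncertain.

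In the negative direction Cyp26a1 differed by −6.25 ± 0.24 (SE; adjusted p = 2.4e-08) and Cdx1 by −3.15 ± 0.19 (SE; adjusted p = 7.2e-07). Gata6 differed by −1.48 ± 0.24 (SE; adjusted p = 5.8e-04), Tinagl1 by −1.15 ± 0.24 (SE; adjusted p = 0.00258) and Epha2 by −0.92 ± 0.20 (SE; adjusted p = 0.00372). All 3 TKO libraries were below all 3 WT libraries under ATRA for these 5 genes as well. The other genes called lower were Slc43a3, Gpx8, Ndn, Aard, Hmgn3, Meis2 and Tes, with differences from −0.79 for Slc43a3 to −0.45 for Tes. Sox4, the first-ranked member, did not pass (−0.51 ± 0.20 (SE; adjusted p = 0.06104)), nor did Jun (0.43 ± 0.16 (SE; adjusted p = 0.0501)), Id2 (0.48 ± 0.20 (SE; adjusted p = 0.0782)) or Id3 (0.76 ± 0.36 (SE; adjusted p = 0.118)). For Zyx, with 0.019 ± 0.083 (SE; adjusted p = 0.873), the 95% interval of −0.16 to 0.20 was among the narrowest, and for Nodal it was −0.31 to 0.24.

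The letters differed in how the members stood. In TKO vehicle the highest library of the 3 was F for 41 members (47.7%, against 30.4% of tested genes), D for 36 (41.9%, against 31.4%) and G for 9 (10.5%, against 38.2%). In TKO with ATRA the counts were 41, 38 and 7, and G was the highest for 33.3% of tested genes. Most members were thus highest in D or F in both TKO groups. Without the G library of TKO vehicle the rule kept 97 genes, 85 of the 86 among them. WT with ATRA D was the highest of its group for 37 members (43%, against 25.1%). Without it the rule kept 81 genes, 74 of them members, and under ATRA 17 members were called, 9 higher and 8 lower in TKO.

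The members were spread over all chromosomes with tested genes except 16 and Y. The X chromosome held 9 of them (10.5%, against 3.45% of tested genes): Nudt11, AA414768, Zcchc12, Rhox1, Rhox10, Sox3, Sh3bgrl, Tspan6 and Amot. Over all tested X genes the median difference of TKO from WT in vehicle was 0.05. Chromosome 11, whose genes were shifted up in TKO relative to other autosomes by 0.25, held 5 members (5.81%, against 8.59%), and chromosome 6, shifted by −0.22, held 5 (5.81%, against 4.76%). The 4 tested Y genes had a median vehicle difference of 2.21, higher in TKO, and the Y chromosome holds none of the 3 targeted genes. The part of such line differences in the members' values was not tested.

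**Figure D5:**
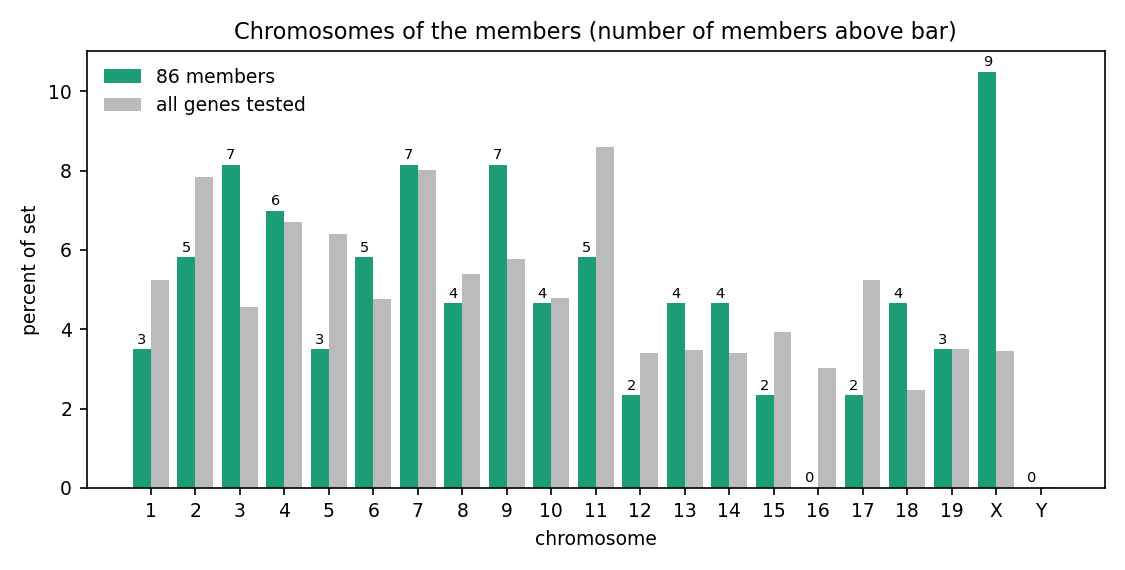
Bars give the percent of the 86 genes (green) and of all 12362 tested genes (grey) on each chromosome, with the number of members above the green bar. The X chromosome has the tallest green bar, with 9 genes at 10.5% against 3.45% of tested genes.

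Few members were neighbours. In the order of positions in the deposited table, Col4a1 and Col4a2 were the only pair with no tested gene between them, and by GENCODE they overlap at their starts on opposite strands. Mlf1 and Lxn had 1 tested gene between them (Gfm1, at 0.17 with ATRA in WT and 0.14 in TKO vehicle), as had Zyx and Fam115c (Epha1, at 0.05 and 0.06) and Hmgn3 and Sh3bgrl2 (Lca5, at 0.53 and −0.35). Rhox1 and Rhox10 were separated by Rhox6 and Rhox9. None of these genes in between met the rule. Of the promoter-printed members, Cyp26a1 lies at chr19:37697798-37701536, Tinagl1 at chr4:130164454-130175122 and Cyr61 at chr3:145646971-145649985 in GRCm38, and of the highest ranked, Sox4 lies at chr13:28948919-28953713, Id3 at chr4:136143497-136145755 and Id2 at chr12:25093799-25097140.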

How the data were processed

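RNA of 12 libraries was sequenced as single-end 51 bp reads, per the labels' protocols. The deposited values are FPKM per gene; the unit rests on the values themselves, since the header names none, and on Cufflinks being listed, with STAR and the build GRCm38, per the submitters' processing notes, which give no version or role. Depth per library is unknown from FPKM and no count test was possible. Of 23686 rows, 18 exact duplicates were removed. The table's positions are not GRCm38 positions, so GRCm38 coordinates were taken from GENCODE vM21 or RefSeq by symbol or synonym. Columns were matched to groups by name and not to numbered samples; 0 columns belonged to other samples. The labels do not say whether libraries of a group were separate cultures, and p-values therefore reflect the spread among these libraries alone.

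Genes that reached 1 FPKM in 3 or more libraries were fitted on the log2(FPKM + 1) scale with limma 3.58.1 (R 4.3.3), all 12 libraries together and a mean for each group, which leaves 8 residual degrees of freedom, with a mean-variance trend, robust moderation, and p-values adjusted by Benjamini-Hochberg over the 12362 genes at 0.05. The fit was tested on simulated data with independent libraries, for the contrast of genotypes under ATRA only. That test does not cover the pairing by letter or the ATRA contrasts within a genotype. The members, the 18 gene lists and the markers were chosen with earlier results of these data known, and the lists share genes. Named were the 16 members with the largest smaller difference, up to 5 members per list, the 5 with the largest called difference between genotypes under ATRA in each direction, genes at the edge of the rule, and Rara, Rarb and Rarg; other names were chosen after their values were seen. Of the members, 1 is counted throughout but not reported here by name. Letters pair libraries within a genotype: after group means were removed, the 6 pairs that share genotype and letter had correlations of 0.376 to 0.864, those of different letters in a genotype at −0.73 to 0.315. This comes from the data, not the labels. Once group means are removed, positive correlations for shared letters force negative ones between some different letters. The distance between these ranges is therefore partly built in. Alternatives were other pseudocounts, scalings and filters, the letter as a block, and leaving out each library.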

Additional observations from a re-analysis of the deposited data

How the results depend on the processing

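The number of genes chosen depended on the pseudocount and on the size of difference required. In place of 86 the rule kept 386 genes with a pseudocount of 0.1, 15 with 5, 50 after quantile normalization (48 of the 86 among them) and 10 when both differences had to reach 1; leaving out each of the 12 libraries in turn gave 78 to 117. Genes called for ATRA in WT, 2063 as reported, numbered 6887 with the replicate block (letter within genotype), 6961 with the block as a random effect, and 1189 to 2179 when a library was left out (1312 without WT vehicle D and 1189 without WT ATRA D). Genes called for TKO against WT in vehicle, 3046 as reported, numbered 1934 to 3172 when a library was left out. Without WT vehicle D they numbered 1934 and without TKO vehicle D 1942. With quantile normalization they numbered 3274, and with no filter on low values 3298.

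For ATRA in TKO cells 0 members and 0 genes passed in limma in all 20 fits, the replicate block included; 3 members had an unadjusted p under 0.05 with either block and 1 without TKO vehicle G. Members called between genotypes under ATRA numbered 17 to 26. For the 10 genes named with the largest called differences under ATRA, 178 recomputed differences kept direction and call and none reversed. The others were those of Igf2, 1.48 and 1.35 without the D or F library of TKO with ATRA. These genes were chosen for their large calls, and their libraries under ATRA did not overlap between genotypes. Leaving out a library or changing the pseudocount could therefore not reverse a direction, and leaving out a vehicle library left the estimate unchanged. The count of 178 was thus largely fixed in advance and is no measure of stability. No recomputed rule difference of a gene named by the rule for names reversed. The rule had placed the WT vehicle libraries of each gene below those of both compared groups. Leaving out a library or changing the pseudocount could therefore not reverse a rule difference, and nothing is read from this. The block as a random effect changed no call of these 10 genes. Depth is unknown, which limits what can be said of the 22 members under 1 FPKM in WT vehicle.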
